A study of Mus musculus with 6 samples.

Results

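The EGF-like factors and cumulus matrix genes are 9 genes around the response of a follicle to the ovulatory signal, and they were followed here in whole ovaries of mice with and without a truncating Bnc1 mutation. Members were set by gene symbol, with earlier results of these data known: the ligands Areg, Ereg and Btc, their receptor Egfr, and the matrix genes Has2, Tnfaip6, Ptx3, Vcan and Cd44. They are 9 of the 44788 genes listed in the count table, and each symbol was found once. The groups were 3 Bnc1+/+ ovaries (replicates 1, 4 and 7, wild type) and 3 Bnc1tr/tr ovaries (replicates 1, 2 and 3), all from 8-week-old C57BL/6 J mice. Bnc1tr/tr mice carry on both alleles, in the germline, a short deletion in Bnc1, the gene of the zinc finger protein basonuclin 1, that shifts the reading frame and ends the protein early, so every cell of the animal carries it. Total RNA was taken from whole ovary, and the labels give neither the stage of the estrous cycle nor any hormone treatment of these mice.

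In the ovulatory follicle, luteinizing hormone acts on mural granulosa cells, which carry its receptor. These cells release amphiregulin, epiregulin and betacellulin, which are shed from the cell surface and bind the EGF receptor on granulosa and cumulus cells. Cumulus cells then make hyaluronan, and inter-alpha-trypsin inhibitor heavy chains, TNFAIP6 and pentraxin 3 hold it together in the expanded matrix, in which versican and the receptor CD44 also bind hyaluronan.

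The 6 libraries held 25247770 to 34406296 counted reads each, and 3 counts stood for 0.0906 to 0.115 CPM, the usual rate of a gene's count against the total of its library. CPM values were scaled with the TMM factors of edgeR, which corrects for differences in library composition. Bnc1 itself had 13.9, 13.4 and 13.1 CPM in Bnc1+/+ ovaries and 18.7, 13.7 and 11.5 CPM in Bnc1tr/tr ovaries, and the groups overlapped (log2 fold change 0.12, SE 0.18, adjusted p = 0.733 by edgeR, Benjamini-Hochberg adjusted). Adjusted p values are from the quasi-likelihood test of edgeR, corrected after Benjamini and Hochberg for all genes in the fit; log2 fold changes are Bnc1tr/tr minus Bnc1+/+. A short frameshifting deletion need not change the number of reads on a gene, so this count does not check the genotype labels. Markers of granulosa cells, oocytes and luteal cells were present in every ovary, with summed levels of at least 3090 CPM for 8 granulosa genes, 540 CPM for 9 oocyte genes and 6340 CPM for 8 luteal genes. The luteal sum was 20300 to 23700 CPM in Bnc1+/+ and 6340 to 11800 CPM in Bnc1tr/tr ovaries, and 6 of its 8 genes were lower by the test. Akr1c18 and Parm1 overlapped between genotypes and were not called (adjusted p = 0.647 and 0.58 by edgeR). Most of the sum came from the steroid synthesis genes Cyp11a1 and Hsd3b1, at 1970 and 3950 CPM in Bnc1tr/tr replicate 1. The 4 endothelial markers summed to 402 to 521 CPM in Bnc1+/+ and 253 to 284 CPM in Bnc1tr/tr, and all 4 were lower by the test. Of all genes tested, 4.19% were lower and 2.88% higher. The 6 oviduct markers set the replicates of a genotype apart: they summed to 161 CPM in Bnc1+/+ replicate 1 and 562 CPM in Bnc1tr/tr replicate 3, against 35.9 to 44.9 CPM in the other 4 ovaries. The 4 adipocyte markers summed to 213 and 125 CPM in Bnc1tr/tr replicates 1 and 2, against 13.7 to 44.8 CPM in the other 4 ovaries, and 1 of the 4, Plin1, was higher in Bnc1tr/tr by the test.

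The sequence just upstream of the start site was read for the members with an entry in the RefSeq promoter table (GRCm38.p6), which were 7 of the 9, the exceptions being Ereg and Has2. Windows from 250 bases before to 50 after the start were searched on both strands for motifs of factors known from the ovulatory response or the core promoter: the cyclic AMP response element (CRE) TGACGTCA, AP-1 TGANTCA, the E-box CACGTG, C/EBP TTGCNNAA, the TATA box TATAAA and the CCAAT box CCAAT. These stood in 1.79%, 7.81%, 7.15%, 10.8%, 13.6% and 37.4% of all 32851 promoters. Areg held a CRE from -61 to -54, a palindrome that reads alike on both strands, and a TATA box from -31 to -26. Ptx3 held a C/EBP match on the minus strand from -57 to -50, Tnfaip6 an AP-1 match from -142 to -136 and CCAAT boxes, and Vcan a CCAAT box. Egfr, Btc and Cd44 held none of the 6 motifs, and the E-box was found in 0 of the 7. A match describes the letters only and is not a site of binding. The 250 bases before the start are shown for Areg, the first ligand of the pathway, for Ptx3, the tested member with the largest fold change between genotypes, and for Egfr, the receptor, which had the lowest adjusted p. They run 5′ to 3′ on the gene's strand, with motif matches in capitals, and lie at chr5:91139349-91139598 for Areg, chr3:66219637-66219886 for Ptx3 and chr11:16751953-16752202 for Egfr, all on the plus strand.

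Areg: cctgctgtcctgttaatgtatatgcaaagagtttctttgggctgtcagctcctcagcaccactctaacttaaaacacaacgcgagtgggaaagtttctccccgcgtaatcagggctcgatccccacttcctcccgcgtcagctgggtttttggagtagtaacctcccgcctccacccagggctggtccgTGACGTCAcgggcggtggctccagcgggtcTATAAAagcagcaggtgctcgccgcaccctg

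Ptx3: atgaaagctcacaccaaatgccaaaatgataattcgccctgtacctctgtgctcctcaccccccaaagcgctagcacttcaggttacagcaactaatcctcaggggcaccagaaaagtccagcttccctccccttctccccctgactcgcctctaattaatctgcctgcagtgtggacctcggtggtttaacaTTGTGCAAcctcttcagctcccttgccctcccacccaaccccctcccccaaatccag

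Egfr: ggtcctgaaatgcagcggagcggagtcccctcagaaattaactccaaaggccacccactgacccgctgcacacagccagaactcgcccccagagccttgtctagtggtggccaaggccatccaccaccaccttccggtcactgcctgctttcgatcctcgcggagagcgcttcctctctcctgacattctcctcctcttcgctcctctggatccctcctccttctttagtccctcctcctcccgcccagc

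None of the members passed the test between genotypes. Egfr was higher in each Bnc1tr/tr ovary than in any Bnc1+/+ ovary, by 1.30-fold, and Ptx3 was 1.98-fold higher in Bnc1+/+ than in Bnc1tr/tr ovaries, again without overlap, but both had adjusted p values just over 0.05. The 3 ligands were low in either genotype, with at most 46 counts in any ovary, and Has2, the main hyaluronan synthase of cumulus cells, had at most 13 counts in any ovary. Of the 9 members, 7 passed the filter on low counts, and 0 of these 7 were called at an adjusted p under 0.05 by edgeR, against 7.06% of all 19423 genes tested. Unadjusted p values by edgeR were under 0.05 for 2 of the 7, Egfr and Ptx3. Such values were common, as the gene ranked 4618th of 19423 by this test still had an unadjusted p of 0.0482. DESeq2 called these 2 members, but it called 2420 of all 19423 genes, against 1372 by edgeR. Without overlap between the genotypes were 2 of the 7, or 28.6%, which lies near the 30.8% of all genes tested.

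**Figure D1:**
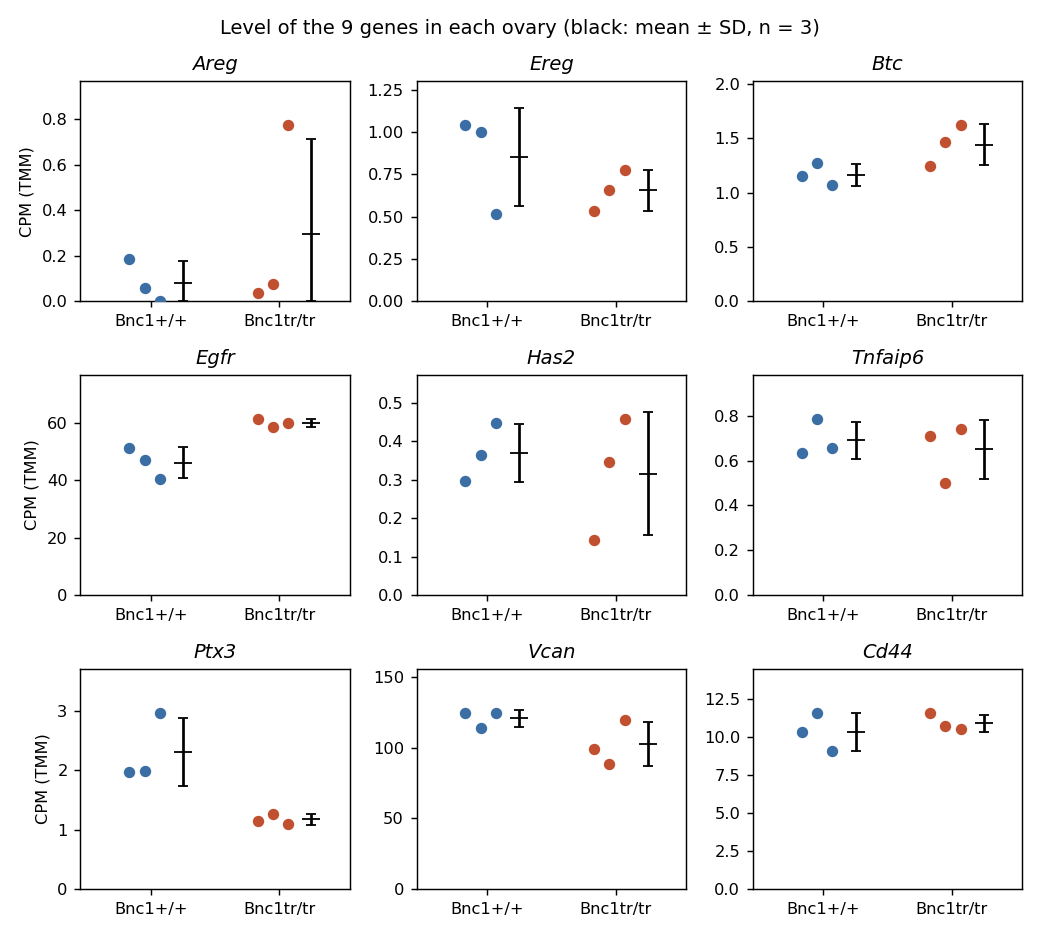
The level of each of the 9 genes, in CPM scaled with TMM factors (y axis, from 0, a scale of its own in each panel), in 3 Bnc1+/+ ovaries (blue, replicates 1, 4 and 7 from left to right) and 3 Bnc1tr/tr ovaries (orange, replicates 1, 2 and 3). Points are ovaries and black marks are mean ± SD, cut off at 0 for Areg. Points of the genotypes are apart for Egfr and Ptx3 and overlap for the other 7 genes.

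Areg encodes amphiregulin and lies on chromosome 5 (GRCm38, 91139599 to 91148432), in a cluster with the ligand genes Ereg, Btc and Epgn. Areg had 5, 2 and 0 counts in Bnc1+/+ ovaries and 1, 2 and 22 counts in Bnc1tr/tr ovaries, or 0.0821 ± 0.0948 CPM against 0.296 ± 0.416 CPM (mean ± SD, n = 3). A single ovary, Bnc1tr/tr replicate 3, held most of the counts, and in the other 5 the level was at most 5 counts. The gene did not pass the filter, and a fit without the filter gave a log2 fold change of 1.85 (adjusted p = 0.462 by edgeR, Benjamini-Hochberg adjusted). The ovaries with 22 and 5 counts of Areg, Bnc1tr/tr replicate 3 and Bnc1+/+ replicate 1, were those with the highest sums of oviduct markers, 562 and 161 CPM. The part of oviduct RNA in the Areg counts was not tested.

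**Figure D2:**
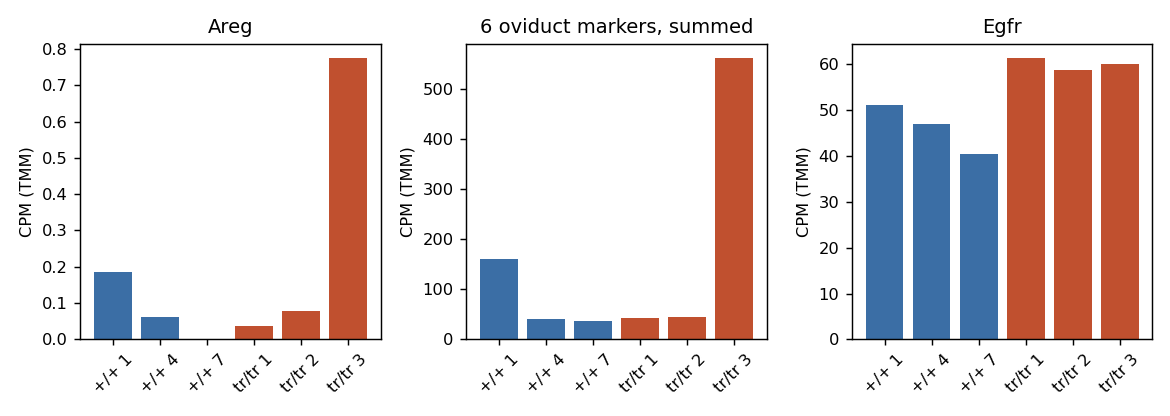
Areg (left), the sum of the 6 oviduct markers Ovgp1, Foxj1, Tppp3, Ccdc153, Dnah5 and Dynlrb2 (middle) and Egfr (right) in each ovary, in CPM scaled with TMM factors, with bars from 0 and 1 bar per ovary (blue Bnc1+/+, orange Bnc1tr/tr). Areg and the oviduct sum are highest in Bnc1tr/tr replicate 3 and second highest in Bnc1+/+ replicate 1. Egfr is highest in Bnc1tr/tr replicate 1, and within Bnc1+/+ all 3 panels fall from replicate 1 to 4 to 7.

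Ereg encodes epiregulin and lies beside Areg on chromosome 5 (91074622 to 91093646). Its counts were 28, 33 and 15 in Bnc1+/+ ovaries and 15, 17 and 22 in Bnc1tr/tr ovaries, or 0.852 ± 0.290 against 0.654 ± 0.121 CPM (n = 3). Bnc1+/+ replicate 7 was as low as the lowest Bnc1tr/tr ovary, so the groups overlapped (log2 fold change -0.38, 95% interval -1.20 to 0.44, adjusted p = 0.561 by edgeR, Benjamini-Hochberg adjusted). Ereg shares 141 exonic bases with Gm19610, an antisense gene on the other strand, and whether the counting used strand is not given in the sources used here, so reads in the shared bases cannot be assigned with certainty.

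Btc encodes betacellulin and lies in the same cluster on the minus strand (91357261 to 91402994). It had 31, 42 and 31 counts in Bnc1+/+ ovaries and 35, 38 and 46 counts in Bnc1tr/tr ovaries, or 1.16 ± 0.100 against 1.44 ± 0.189 CPM (n = 3). The lowest Bnc1tr/tr ovary, at 1.24 CPM, lay just under the highest Bnc1+/+ ovary, at 1.27 CPM. The log2 fold change was 0.31 (95% interval -0.25 to 0.87, adjusted p = 0.480 by edgeR, Benjamini-Hochberg adjusted).

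Egfr encodes the receptor that binds all 3 ligands and lies on chromosome 11 (16752203 to 16918158). Egfr had 51.1, 47.0 and 40.4 CPM in Bnc1+/+ ovaries and 61.4, 58.7 and 60.0 CPM in Bnc1tr/tr ovaries, from 1172 to 1725 counts per ovary. All Bnc1tr/tr ovaries lay above all Bnc1+/+ ovaries, and their spread was narrower (60.0 ± 1.31 against 46.2 ± 5.38 CPM, n = 3). The log2 fold change was 0.38 (SE 0.10, 95% interval 0.15 to 0.61), with an unadjusted p of 0.00565 and an adjusted p of 0.0639 by edgeR, Benjamini-Hochberg adjusted, which placed it 1715th of 19423 genes. The DESeq2 test on the same counts gave an adjusted p of 0.0220 for Egfr and so called it. In RNA of a whole ovary, a change in the number of cells of a type and a change in RNA per cell cannot be told apart. This holds for Egfr as for every gene reported here.

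Has2 encodes the hyaluronan synthase that makes the cumulus matrix and lies on chromosome 15 (56665627 to 56694539). It had 8, 12 and 13 counts in Bnc1+/+ ovaries and 4, 9 and 13 counts in Bnc1tr/tr ovaries, or 0.369 ± 0.0757 against 0.316 ± 0.160 CPM (n = 3). Both groups reached 13 counts. Has2 did not pass the filter on low counts, and a fit without the filter gave a log2 fold change of -0.23 (adjusted p = 0.844 by edgeR, Benjamini-Hochberg adjusted). It shares 182 exonic bases with Has2os on the other strand, with the same uncertainty as for Ereg.

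Tnfaip6 encodes a hyaluronan-binding protein that transfers heavy chains of inter-alpha-trypsin inhibitor to hyaluronan, and lies on chromosome 2 (52038009 to 52056686). It had 17, 26 and 19 counts in Bnc1+/+ ovaries and 20, 13 and 21 counts in Bnc1tr/tr ovaries, or 0.691 ± 0.0827 against 0.651 ± 0.131 CPM (n = 3). The groups overlapped, and the difference was smaller than the spread within a genotype (log2 fold change -0.09, 95% interval -0.76 to 0.59, adjusted p = 0.887 by edgeR, Benjamini-Hochberg adjusted). Its sign turned with library size alone as the scaling and without Bnc1+/+ replicate 4 or Bnc1tr/tr replicate 2 (0.01, 0.01 and 0.07), so no direction can be given.

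Ptx3 encodes pentraxin 3, which cross-links the heavy chains bound to hyaluronan, and lies on chromosome 3 (66219910 to 66225805). It had 53, 66 and 86 counts in Bnc1+/+ ovaries, which was 1.97, 1.99 and 2.97 CPM. In Bnc1tr/tr ovaries it had 32, 33 and 31 counts, which was 1.14, 1.27 and 1.09 CPM. The 3 Bnc1tr/tr ovaries lay close together and under all Bnc1+/+ ovaries, of which replicate 7 was the highest. The mean was 2.31 ± 0.568 against 1.17 ± 0.0922 CPM (n = 3), a 1.98-fold higher level in Bnc1+/+ ovaries (95% interval 1.30 to 3.01) and a log2 fold change of -0.98 (SE 0.26). The adjusted p was 0.0654 by edgeR, Benjamini-Hochberg adjusted, and 0.0401 by DESeq2. The endothelial and luteal marker sums were lower in the same ovaries, and their part in the difference was not tested.

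Vcan encodes versican, a large proteoglycan that binds hyaluronan, and lies on chromosome 13 (89655312 to 89742509). It had 125, 114 and 125 CPM in Bnc1+/+ ovaries and 99.4, 88.6 and 120 CPM in Bnc1tr/tr ovaries. Bnc1tr/tr replicate 3 reached into the range of the Bnc1+/+ ovaries, and the other 2 lay under it. The log2 fold change was -0.24 (SE 0.12, 95% interval -0.52 to 0.03, adjusted p = 0.252 by edgeR, Benjamini-Hochberg adjusted).

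Cd44 encodes a hyaluronan receptor found on many cell types, leukocytes among them, and lies on chromosome 2 (102811141 to 102901665). It had 10.3, 11.6 and 9.07 CPM in Bnc1+/+ ovaries and 11.6, 10.7 and 10.5 CPM in Bnc1tr/tr ovaries. The groups overlapped (log2 fold change 0.08, 95% interval -0.23 to 0.39, adjusted p = 0.748 by edgeR, Benjamini-Hochberg adjusted), and the sign turned without Bnc1+/+ replicate 7, at -0.01. The 8 leukocyte markers summed to 156 to 174 CPM in Bnc1+/+ and 113 to 198 CPM in Bnc1tr/tr ovaries.

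**Figure D3:**
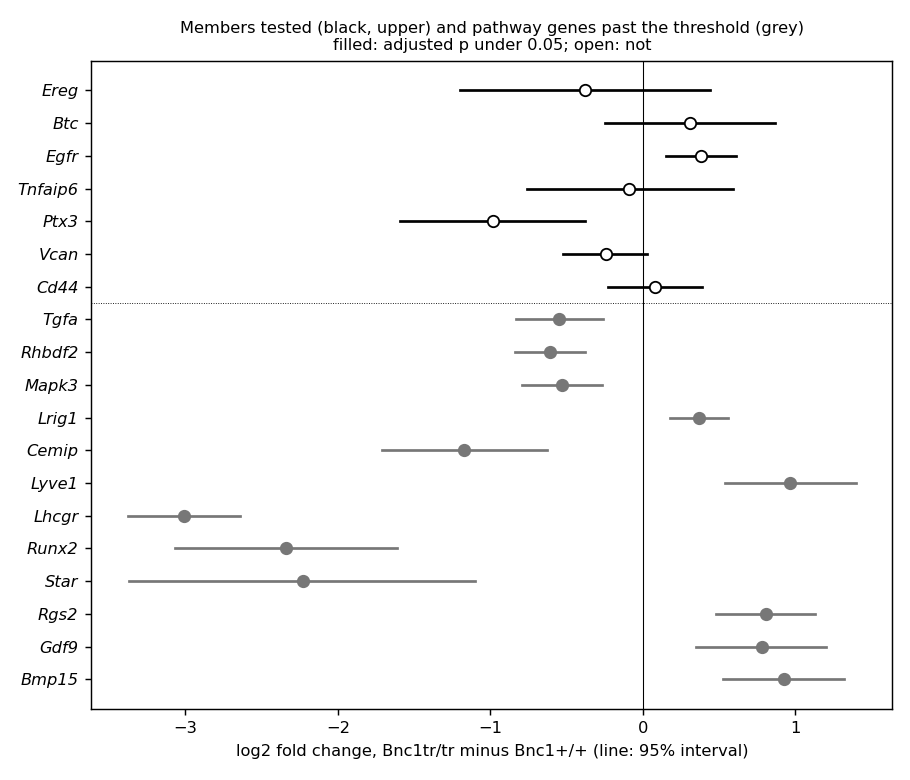
Log2 fold change (Bnc1tr/tr minus Bnc1+/+, points) with its 95% interval (lines) from edgeR's quasi-likelihood test for the 7 members tested (black, above the dotted line) and for the 12 pathway genes past the threshold (grey, below it). Filled points have an adjusted p under 0.05 and open points do not. All 7 members are open, with the intervals of Egfr and Ptx3 clear of 0, and Lhcgr lies farthest from 0 at -3.01.

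Divided by the exon length of each gene (CPM per kb), the order of levels in Bnc1+/+ ovaries was Vcan at 8.40, Egfr at 4.08, Cd44 at 1.52, Ptx3 at 0.861, Tnfaip6 at 0.404, Btc at 0.257, Ereg at 0.206, Has2 at 0.0872 and Areg at 0.0676. Over the 3 ovaries, the ranges of Btc and Ereg overlapped, as did those of Has2 and Areg, and the other neighbours in this order did not overlap. In Bnc1tr/tr ovaries the order began alike, with Vcan at 7.09, Egfr at 5.30 and Cd44 at 1.61 CPM per kb. There Ptx3, at 0.435 (range 0.407 to 0.474), overlapped Tnfaip6, at 0.380 (range 0.293 to 0.433), while in Bnc1+/+ ovaries Ptx3 (0.735 to 1.11) lay above Tnfaip6 (0.370 to 0.459). The mean level of the receptor per length was above those of Areg, Ereg and Btc in either genotype, but below that of Tgfa, another of its ligands, at 11.5 and 7.86 CPM per kb.

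Among the other genes of the EGF family (ligands, receptors and the machinery that sheds them), 12 of 15 were tested, 2 fell in Bnc1tr/tr ovaries and none rose. This balance depended on the method: with library size alone as the scaling 3 were called higher (Adam10, Erbb2 and Nrg1) and 1 lower (Rhbdf2), and with DESeq2 2 were called higher (Erbb2 and Nrg1) and 2 lower (Rhbdf2 and Tgfa). Of all 19423 genes tested, library size alone called 1112 higher and 616 lower, and DESeq2 called 1080 higher and 1340 lower. In the main fit the background was 4.19% of all genes lower and 2.88% higher. The median log2 fold change of the 12 was 0.11, against 0.018 over all genes tested. Tgfa, a ligand of the same receptor, had 63.0, 74.5 and 85.9 CPM in Bnc1+/+ and 50.3, 55.0 and 47.8 CPM in Bnc1tr/tr ovaries (log2 fold change -0.55, adjusted p = 0.0411 by edgeR, Benjamini-Hochberg adjusted). Per length it was the highest ligand of the family. Rhbdf2 encodes iRhom2, which brings the sheddase ADAM17 to the cell surface. It had 93.6, 89.1 and 79.0 CPM in Bnc1+/+ and 52.0, 59.6 and 60.2 CPM in Bnc1tr/tr ovaries (log2 fold change -0.61, adjusted p = 0.0138 by the same test). All Bnc1tr/tr ovaries lay under all Bnc1+/+ ovaries for both genes. The Tgfa call was lost in 5 of the 6 fits that left out 1 ovary (all but Bnc1+/+ replicate 1) and with library size alone as the scaling, and that of Rhbdf2 without Bnc1+/+ replicate 4. Over these 6 fits the log2 fold change ran from -0.66 to -0.44 for Tgfa and from -0.68 to -0.54 for Rhbdf2. Both were lost without the 2 ovaries with high oviduct markers. That smaller fit, also given for the lists below, called 304 genes in all, against 1372 in the main fit.

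The sheddases themselves did not pass the test: Adam17 had 97.4 to 105 CPM in Bnc1+/+ and 92.2 to 104 CPM in Bnc1tr/tr ovaries (adjusted p = 0.869 by edgeR, Benjamini-Hochberg adjusted), and Adam10 had 98.2 to 103 against 113 to 117 CPM, without overlap (adjusted p = 0.143). Rhbdf1, the gene of iRhom1, had 78.8 to 88.0 against 71.5 to 79.8 CPM (adjusted p = 0.374). Erbb2, the co-receptor that pairs with the EGF receptor, had 75.0, 65.4 and 78.6 CPM in Bnc1+/+ and 87.6, 93.0 and 98.0 CPM in Bnc1tr/tr ovaries, without overlap (log2 fold change 0.35, adjusted p = 0.0705). Nrg1 and Hbegf were picked out after their values were seen. The ligand gene Nrg1, whose product binds ERBB3 and ERBB4, had 2.90, 2.05 and 2.55 CPM against 5.19, 3.46 and 4.79 CPM (log2 fold change 0.84, adjusted p = 0.0752). Hbegf, a ligand of the EGF receptor, stood apart in a single ovary: Bnc1tr/tr replicate 1 had 474 counts, against 85 to 177 in the others. The same ovary had the highest sums of the 2 theca markers (240 CPM, of which Cyp17a1 held 235, against 6.85 to 128 CPM in the others), the 4 adipocyte markers (213 against 13.7 to 125 CPM) and the 8 granulosa markers (5560 against 3090 to 4890 CPM). The part of these cell types in the Hbegf counts was not tested.

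**Figure D4:**
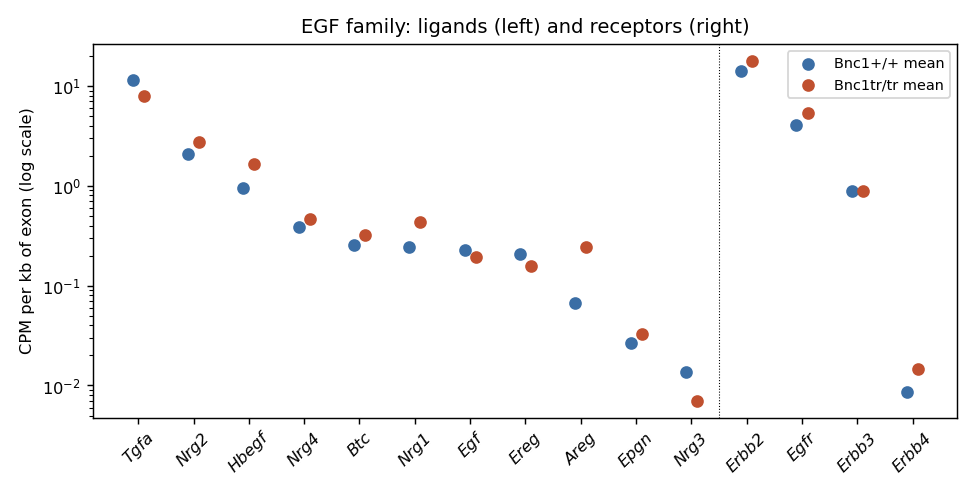
Mean level of each EGF family ligand (left of the dotted line) and receptor (right), in CPM per kb of exon on a log axis, in Bnc1+/+ (blue) and Bnc1tr/tr (orange) ovaries, n = 3 each. Tgfa is the highest ligand at 11.5 and 7.86 CPM per kb, Areg lies at 0.0676 and 0.244, and Erbb2 and Egfr are the highest receptors.

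Of the 19 genes of EGF receptor signalling, all were tested, 1 rose and 1 fell, with a median log2 fold change of -0.12. The background was 2.88% of all genes higher and 4.19% lower, with a median of 0.018. Mapk3, the gene of the kinase ERK1, had 365, 414 and 408 CPM in Bnc1+/+ and 237, 298 and 287 CPM in Bnc1tr/tr ovaries (log2 fold change -0.53, adjusted p = 0.0329 by edgeR, Benjamini-Hochberg adjusted). Lrig1, a membrane protein that lowers the amount of EGF receptor on the cell, had 66.9, 58.3 and 60.7 CPM in Bnc1+/+ and 80.7, 81.3 and 78.0 CPM in Bnc1tr/tr ovaries (log2 fold change 0.37, adjusted p = 0.0391). Neither pair of groups overlapped. The call of Lrig1 was lost in each of the 6 fits that left out 1 ovary, and that of Mapk3 in 4 of them (each Bnc1+/+ ovary and Bnc1tr/tr replicate 3) and with library size alone as the scaling. Over these 6 fits the log2 fold change ran from 0.32 to 0.42 for Lrig1 and from -0.60 to -0.44 for Mapk3. Neither was called without the 2 ovaries with high oviduct markers. The kinase gene Map2k2 had 144 to 160 CPM in Bnc1+/+ and 138 to 143 CPM in Bnc1tr/tr ovaries (adjusted p = 0.398 by edgeR). The phospholipase gene Plcg1 had 149 to 173 against 119 to 140 CPM (adjusted p = 0.117 by the same test). The groups did not overlap for either gene, as for 30.8% of all genes tested, but neither gene passed the test.

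Of 22 other genes of the hyaluronan matrix (enzymes, cross-linkers, receptors and proteases), 19 were tested, 1 rose and 1 fell, with a median log2 fold change of 0.14. Among all genes tested, 2.88% were higher and 4.19% lower, with a median of 0.018. Cemip, which encodes a protein needed to break down hyaluronan and stands in the table under its older symbol, had 270, 279 and 459 CPM in Bnc1+/+ and 117, 164 and 169 CPM in Bnc1tr/tr ovaries (log2 fold change -1.17, adjusted p = 0.0284 by edgeR, Benjamini-Hochberg adjusted). Lyve1 encodes a hyaluronan receptor of lymphatic endothelium and of some macrophages. It had 7.77, 9.49 and 7.86 CPM in Bnc1+/+ and 20.3, 16.2 and 12.8 CPM in Bnc1tr/tr ovaries (log2 fold change 0.97, adjusted p = 0.0247), while the general endothelial markers were lower. The groups did not overlap for either gene. The call of Cemip was lost in 5 of the 6 fits that left out 1 ovary (all but Bnc1+/+ replicate 1), that of Lyve1 without any 1 of the Bnc1+/+ ovaries, and both without the 2 ovaries with high oviduct markers. The log2 fold change over the 6 fits ran from -1.31 to -0.88 for Cemip and from 0.79 to 1.13 for Lyve1.

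The 4 most abundant of the other hyaluronan genes overlapped between the genotypes and did not pass the test. Itih5, a gene of the heavy chain family, had 292 to 369 CPM in Bnc1+/+ and 295 to 439 CPM in Bnc1tr/tr ovaries (adjusted p = 0.673 by edgeR, Benjamini-Hochberg adjusted). Hyal2, a hyaluronidase gene, had 111 to 126 against 103 to 112 CPM (adjusted p = 0.307). Ugdh, whose enzyme makes a sugar precursor of hyaluronan, had 62.9 to 75.2 against 54.5 to 88.3 CPM (adjusted p = 0.666). Adamts1, the gene of a protease that cleaves versican and is made in the ovulatory follicle, had 49.6 to 82.1 against 34.7 to 97.5 CPM (adjusted p = 0.928).

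Of 23 genes around the ovulatory surge, 19 were tested, 3 rose and 3 fell, with a median log2 fold change of 0.22. Over all genes tested, 2.88% were higher and 4.19% lower, with a median of 0.018. Lhcgr, the receptor of luteinizing hormone, had 544, 800 and 728 CPM in Bnc1+/+ and 92.8, 86.0 and 79.0 CPM in Bnc1tr/tr ovaries, an 8.04-fold higher level in Bnc1+/+ (log2 fold change -3.01, adjusted p = 0.000235 by edgeR, Benjamini-Hochberg adjusted). Runx2, a transcription factor gene induced in granulosa and luteal cells around ovulation, had 117, 126 and 159 CPM against 14.1, 36.3 and 29.1 CPM (log2 fold change -2.34, adjusted p = 0.0067). Star, whose protein carries cholesterol into mitochondria for steroid synthesis, had 2180, 2570 and 1630 CPM against 151, 689 and 516 CPM (log2 fold change -2.23, adjusted p = 0.0374). Lhcgr and Star are also luteal markers, and the luteal sum was lower in the same ovaries, so the fall of these genes and of that sum are not separate measurements.

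The genes that rose were Rgs2, Gdf9 and Bmp15. Rgs2, a regulator of G protein signalling, had 196, 167 and 157 CPM in Bnc1+/+ and 352, 254 and 304 CPM in Bnc1tr/tr ovaries (log2 fold change 0.81, adjusted p = 0.0166 by edgeR, Benjamini-Hochberg adjusted). The oocyte factors Gdf9 and Bmp15, which act on cumulus cells, had log2 fold changes of 0.78 (adjusted p = 0.0458) and 0.93 (adjusted p = 0.0204), and both are among the 9 oocyte markers, which summed to 540 to 701 CPM in Bnc1+/+ and 668 to 1020 CPM in Bnc1tr/tr ovaries. Lhcgr and Runx2 were called in all 6 fits that left out 1 ovary. The calls of Gdf9, Bmp15, Star and Rgs2 were kept in 1, 2, 2 and 3 of these 6, and each was lost without Bnc1+/+ replicate 4, without Bnc1+/+ replicate 7 and without Bnc1tr/tr replicate 3. Their log2 fold changes in these fits ran from 0.65 to 0.95, from 0.75 to 1.09, from -2.68 to -1.82 and from 0.69 to 0.92. That of Star was also lost in a robust edgeR fit. Without the 2 ovaries with high oviduct markers, Lhcgr was the sole gene of the list called. Ptgs2, the prostaglandin synthase gene induced at ovulation, was picked out after its values were seen: it had 9, 1 and 2 counts in Bnc1+/+ and 4, 10 and 6 counts in Bnc1tr/tr ovaries and did not pass the filter. The transcription factor gene Cebpa had 53.5 to 83.9 CPM in Bnc1+/+ and 96.9 to 118 CPM in Bnc1tr/tr ovaries, without overlap (log2 fold change 0.62, adjusted p = 0.0631). Ptges, a prostaglandin synthase gene, Npr2, the receptor gene of C-type natriuretic peptide, and Nrip1, a nuclear receptor co-regulator gene, overlapped between genotypes, with adjusted p values of 0.867, 0.695 and 0.316.

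**Figure D5:**
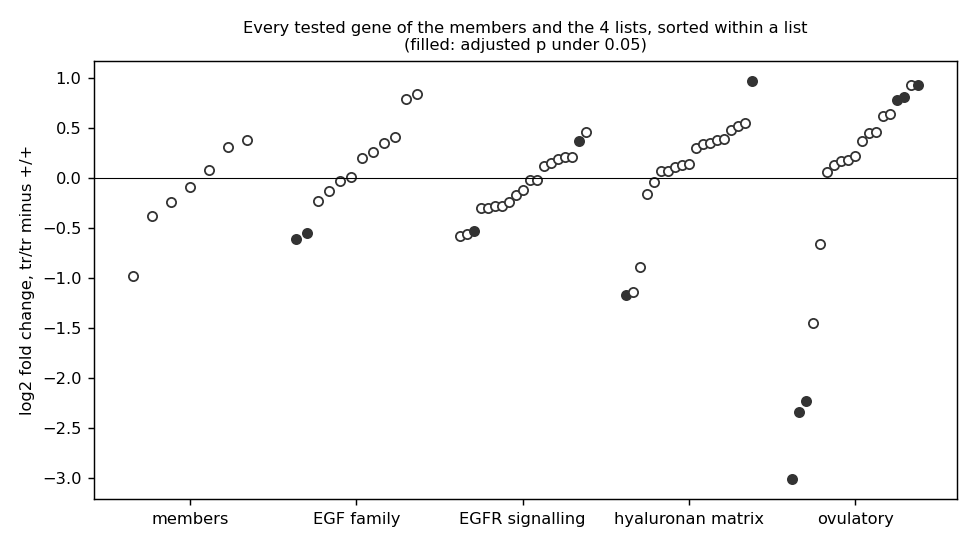
Log2 fold change (y axis, Bnc1tr/tr minus Bnc1+/+) of every tested gene of the 9 members and the 4 lists, sorted within each list from left to right. Filled points have an adjusted p under 0.05 by edgeR's quasi-likelihood test. No member is filled, 2 points each are filled in the EGF family, EGF receptor signalling and hyaluronan lists, and 6 are filled in the ovulatory list.

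The member with the lowest adjusted p was Egfr, and the genes whose log2 CPM followed it most closely over the 6 ovaries, among 16752 genes with a mean of at least 1 CPM, were Fkbp11 (Pearson r 0.997), Eps8 (0.9965) and Lurap1 (0.996). Each had its lowest level in Bnc1+/+ replicate 7 and its highest in Bnc1tr/tr replicate 1, as Egfr did. Fkbp11 had 11.3, 10.1 and 8.07 CPM in Bnc1+/+ and 16.1, 14.4 and 15.3 CPM in Bnc1tr/tr ovaries. Between members, Egfr and Ptx3 ran opposite to each other (r = -0.98), as did Btc and Ptx3 (r = -0.81), while pairs that held Ereg or Tnfaip6 had r from -0.15 to 0.55. These are descriptions over 6 points in 2 genotypes, chosen among many genes and 21 pairs, and points of a genotype share its difference in level.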

How the data were processed

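Raw counts per gene symbol from 6 whole-ovary libraries were used. The authors extracted total RNA with TRIzol, sequenced single-end Ion Proton libraries and deposited whole-number counts for 44788 symbols without normalization. The paper's methods do not state how many ovaries each sample held, and a sample is called an ovary here. The submitters' processing notes name the builds mm10 and Sscrofa10.2, the second a pig build, without saying what each was used for; the aligner, the counting tool, the annotation and any use of strand are not given in the sources used here. Depth was 25247770 to 34406296 counts per ovary, so 3 counts, taken as the floor, are 0.0906 to 0.115 CPM, which covers counting error only.

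Genes were filtered with filterByExpr (minimum count 10), scaled with TMM and tested over all 6 ovaries in R 4.3.3 by the quasi-likelihood functions glmQLFit and glmQLFTest (edgeR 4.0.16). Tests were two-sided, and p values were adjusted with the Benjamini-Hochberg method over the 19423 genes tested, with a threshold of 0.05. The labels do not say more than that the ovaries are separate samples, so p values measure the spread between these samples. Log2 CPM for likeness used a prior count of 2. Positions and exon lengths came from GRCm38 with GENCODE M21, and upstream sequences from RefSeq (GRCm38.p6). Symbols not found as written (Cemip and Adgre1) were matched through RefSeq synonyms.

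The named genes were the 9 members, Bnc1, every gene of 4 hand-written pathway lists that passed the test, the 4 others of each list with the highest mean CPM, and the 3 genes most like the member with the smallest adjusted p. Some genes this rule names are not reported here. The members and lists were chosen with earlier results of these data known. Alternatives were DESeq2 size factors, library size alone, no filter, at least 10 counts in every ovary, each ovary left out in turn, DESeq2 1.42.0, limma-voom (limma 3.58.1), a robust edgeR fit and an absolute log2 fold change over 0.5; leaving out the 2 ovaries with high oviduct markers was added after seeing the data. The procedure was tested on simulated data.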

Additional observations from a re-analysis of the deposited data

How the results depend on the processing

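No member was called in any of the 6 fits that left out 1 ovary (0 to 0), nor with DESeq2 size factors, no filter, at least 10 counts in every ovary, limma-voom, a robust edgeR fit or without the 2 ovaries with high oviduct markers, a choice made after seeing the data. With library size alone 1 was called (Egfr, log2 fold change 0.48, adjusted p = 0.0267 by edgeR), a scaling that moved the median log2 fold change of all genes from 0.018 to 0.118, and with DESeq2 2 were called (Egfr and Ptx3). Over the 14 alternatives the log2 fold change ran from 0.28 to 0.48 for Egfr (adjusted p 0.022 to 0.192) and from -1.09 to -0.77 for Ptx3 (0.0401 to 0.225), both always of the same sign. Tnfaip6 changed sign to 0.01 with library size alone, to 0.01 without Bnc1+/+ replicate 4 and to 0.07 without Bnc1tr/tr replicate 2, and Cd44 to -0.01 without Bnc1+/+ replicate 7; over the 6 fits that left out 1 ovary they ran from -0.19 to 0.07 and from -0.01 to 0.17, and Ereg, Btc and Vcan kept their sign in all 14. With library size alone, 4 genes of the EGF family (3 higher, 1 lower) and 1 of EGF receptor signalling (higher) were called, against 2 (both lower, of which Rhbdf2 was shared) and 2 (1 higher, 1 lower). With DESeq2, 4 were called in each of these lists (2 higher and 2 lower, and 1 higher and 3 lower). An absolute log2 fold change over 0.5 left 1 gene of EGF receptor signalling. Leaving out 1 ovary gave 0 to 1 genes in the EGF family list except without Bnc1+/+ replicate 1 (2 genes), 0 to 1 in EGF receptor signalling except without Bnc1tr/tr replicate 2 (2 genes), 0 to 1 in the hyaluronan list, and 2 to 3 in the ovulatory list except without Bnc1tr/tr replicate 1 (5 genes) and replicate 2 (6 genes). Without the 2 ovaries with high oviduct markers, 0 genes of the EGF family, 0 of EGF receptor signalling, 0 of the hyaluronan list and 1 of the ovulatory list were called. Over all genes, 1372 were called (559 higher and 813 lower in Bnc1tr/tr), against 1728 with library size alone (1112 higher, 616 lower), 2420 with DESeq2, 304 without the 2 ovaries with high oviduct markers and 320 to 1282 with 1 ovary left out, the lowest without Bnc1+/+ replicate 4; the cause was not tested. The paper states that mice were compared with littermates, but the labels used here name no litter and no pairs. No paired analysis was therefore possible. Areg and Has2 had at most 22 and 13 counts per ovary, the Areg counts also varied within Bnc1tr/tr (1, 2 and 22), and how small a difference could be detected was not measured.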
